A study of Mus with 2 samples.

Results

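The 7 haemoglobin genes described here are Hba-a1, Hba-a2, Hbb-bs, Hbb-bt, Hba-x, Hbb-bh1 and Hbb-y, picked by symbol from the 28693 features of single-cell RNA libraries of newborn mouse kidney, and all 7 were found. They were followed in 3 kinds of barcodes of each library. Erythroid barcodes held at least 2000 unique molecular identifiers (UMIs, each 1 counted RNA molecule) with at least 20% of them from the 7 genes. The other kept barcodes also held at least 2000 UMIs, with a smaller globin share. Empty barcodes held 50 to 250 UMIs with no limit on globin. They are called empty by this rule alone, and whether some held a cell was not tested. The globin share that defines erythroid barcodes is a rule and not a result.

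Both libraries, replicates 1 and 2, came from kidneys at postnatal day 0 (P0) with the genotype Rbpj c/- ; Foxd1cre/+. Cre was driven by Foxd1, a gene of the stromal progenitors of the kidney, so the conditional allele was targeted in the renal interstitium and not in blood cells, while the minus sign in the label marks the second allele as lost. The 10x Chromium method counts RNA at the 3' ends of cDNA. The design names 4 libraries, and its 2 controls (Rbpj c/+ ; Foxd1cre/+) were not analysed here. No value therefore measures an effect of the genotype. The labels do not say whether a library is 1 animal or a pool. With 2 libraries in 1 group, differences between libraries have no test, and an exact permutation test of 2 values against 2 cannot go below 0.333.

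Haemoglobin is a tetramer of alpha-type and beta-type chains, each carrying heme. In the mouse, primitive red cells made in the yolk sac use the embryonic chains zeta (Hba-x), epsilon-y (Hbb-y) and beta-h1 (Hbb-bh1), and definitive red cells made in the fetal liver and later in marrow use the adult alpha chains (Hba-a1, Hba-a2) and the adult beta chains (Hbb-bs, Hbb-bt). The newborn kidney is not known as a site where red cells are made. The alpha-type genes lie on chromosome 11 of mm10, with Hba-x at 32276600 to 32278116, Hba-a1 at 32283672 to 32284486 and Hba-a2 at 32296492 to 32297310. The beta-type genes lie on chromosome 7, with Hbb-bt at 103812524 to 103813923, Hbb-bs at 103826523 to 103827928, Hbb-bh1 at 103841638 to 103843162 and Hbb-y at 103851754 to 103853207. Hba-a1 and Hba-a2 have nearly the same sequence, as do Hbb-bs and Hbb-bt over much of their coding part. How the counting split reads between such copies was not given in the sources used here, so each share of 1 copy is uncertain by an amount that was not measured.

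The libraries held 163405630 and 135436576 UMIs in replicates 1 and 2. Globins made up 1.81% and 1.45% of them. Of 5910 and 4937 kept barcodes, 487 (8.24%) and 368 (7.45%) were erythroid. The erythroid barcodes held 71.9% and 73.9% of all globin UMIs, the empty barcodes 7.15% and 6.63%, and the other kept barcodes 3.50% and 3.28%. Kept barcodes shared between the libraries numbered 5, of which 0 were erythroid in both. The threshold fell in a thin part of the distribution. In replicate 1, 6 other kept barcodes had 15% to 20% globin and 3 erythroid barcodes had 20% to 25%. In replicate 2 these numbers were 3 and 4. At 70% globin or more stood 465 of the 487 and 343 of the 368 erythroid barcodes.

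The label erythroid was checked with 8 matched genes outside the globins, among them Alas2, Slc4a1, Hemgn, Klf1, Gata1, Tspan33 and Rhd. Their summed level in CPM (counts per 1000000 UMIs of the group) was 1887 and 2072 in erythroid barcodes, 19.4 and 15.5 in other kept barcodes and 49.0 and 37.9 in empty barcodes. Alas2, the first enzyme of heme synthesis in red cells, made up most of it, at 1392 and 1585 CPM in erythroid barcodes. Gata1, an erythroid transcription factor, had only 3 and 2 UMIs there. Markers of the macrophage list summed to 43.4 and 9.86 CPM in erythroid barcodes against 226 and 193 CPM in other kept barcodes. Globins took up 83.2% and 79.4% of the UMIs of erythroid barcodes, which lowers the CPM of every other list there. The macrophage values are therefore no check of the label. Clustering done without the 7 genes placed 476 of the 487 and 357 of the 368 erythroid barcodes in the same 3 clusters, numbered 10, 17 and 27. Those 3 clusters held 2 further barcodes, both in replicate 1. Counts were scaled to all UMIs of a barcode, globins included, before the globins were left out. The globin share therefore lowered all other genes of these barcodes, and part of this agreement is built in.

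In erythroid barcodes the order of the adult genes by UMIs was Hbb-bs first and Hba-a1 second in both libraries. Hbb-bs, the major adult beta chain, made up 56.1% and 59.6% of globin UMIs (57.9% ± 2.4, SD, n = 2). Hba-a1 made up 18.7% and 24.6% (21.6% ± 4.2, SD, n = 2). The third and the fourth place changed between libraries, with Hba-a2 at 13.4% and 6.61% and Hbb-bt at 11.8% and 9.16%. These shares are of UMIs, which count 3' ends and need no division by length. All 487 and 368 erythroid barcodes had UMIs of each of the 4 adult genes. A barcode held a median of 2293 and 2239 Hbb-bs UMIs, 757 and 931 of Hba-a1, 521 and 238 of Hba-a2, and 331 and 243 of Hbb-bt. The rule, at least 2000 UMIs with at least 20% globin, nearly fixes that each abundant adult gene has a UMI, so this is a description.

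**Figure D1:**
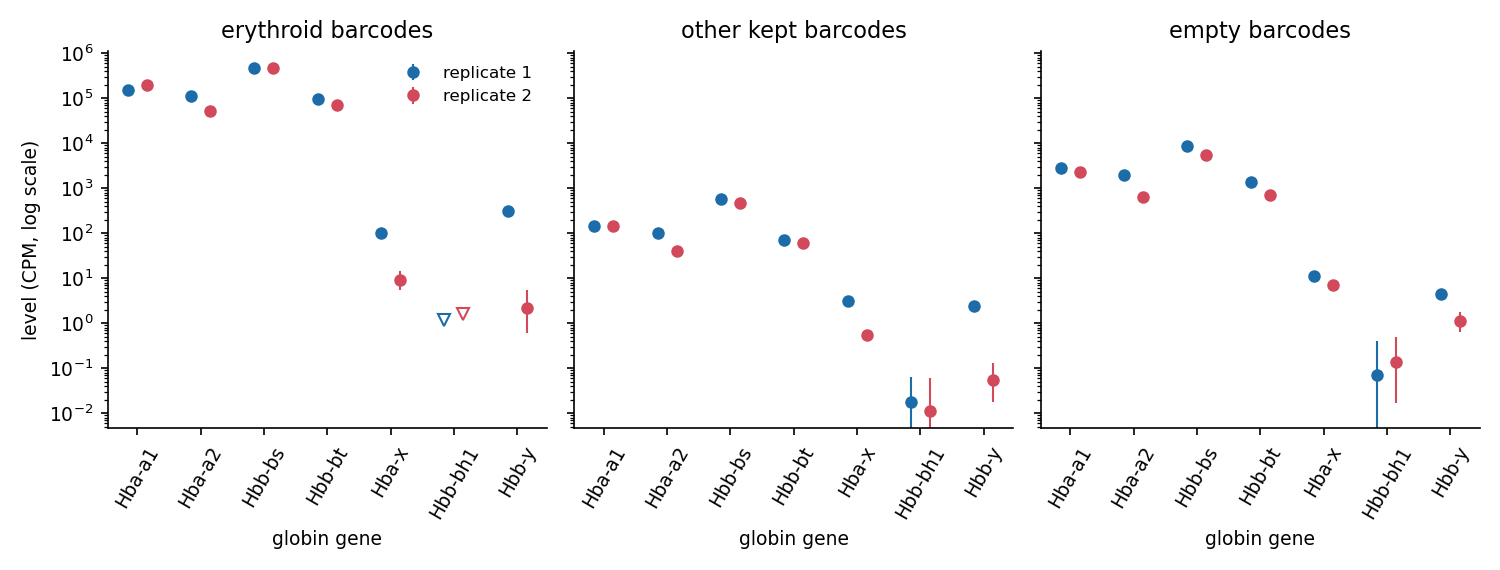
Level of each globin gene in CPM (log scale) in erythroid, other kept and empty barcodes, with 1 point per library and exact Poisson 95% intervals that cover counting error only; open triangles mark genes with 0 UMIs, drawn at the level of 3 counts. The 4 adult genes stand far above the 3 embryonic genes in all 3 groups, and Hbb-bs is the highest gene in each.

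The alpha-type chains made up less than the beta-type chains in all 3 groups. In erythroid barcodes the ratio of alpha-type to beta-type UMIs was 0.471 and 0.455 (0.463 ± 0.012, SD, n = 2). In empty barcodes it was 0.473 and 0.478, within 0.024 of the erythroid value of the same library. In other kept barcodes it was 0.381 and 0.352, below both other groups in each library. Exact binomial 95% intervals of the alpha share of globin UMIs were 27.3% to 27.8% and 25.7% to 26.4% in other kept barcodes and 31.9% to 32.3% and 32.1% to 32.6% in empty barcodes. These intervals cover counting error only. Within erythroid barcodes the alpha share per barcode had a median of 31.9% and 31.1%, and its 10th and 90th percentiles were 27.1% and 36.5% in replicate 1 and 26.8% and 36.6% in replicate 2.

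The share of the second adult alpha gene set the libraries apart. Hba-a2 made up 41.7% of Hba-a1 and Hba-a2 UMIs in the erythroid barcodes of replicate 1 and 21.2% in those of replicate 2. The other kept barcodes gave 42.1% and 21.4%, and the empty barcodes 42.1% and 21.8%. The difference between libraries therefore had nearly the same size in all 3 groups, whereas the groups of 1 library lay within 0.65 percentage points of each other. Single erythroid barcodes did not overlap between libraries: the lowest of 487 in replicate 1 was 32.3% and the highest of 368 in replicate 2 was 26.5%. The barcodes of a library share 1 source and are not replicates. The medians of erythroid barcodes in clusters 10, 17 and 27 lay between 41.3% and 42.7% in replicate 1 and between 21.0% and 21.6% in replicate 2.

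**Figure D2:**
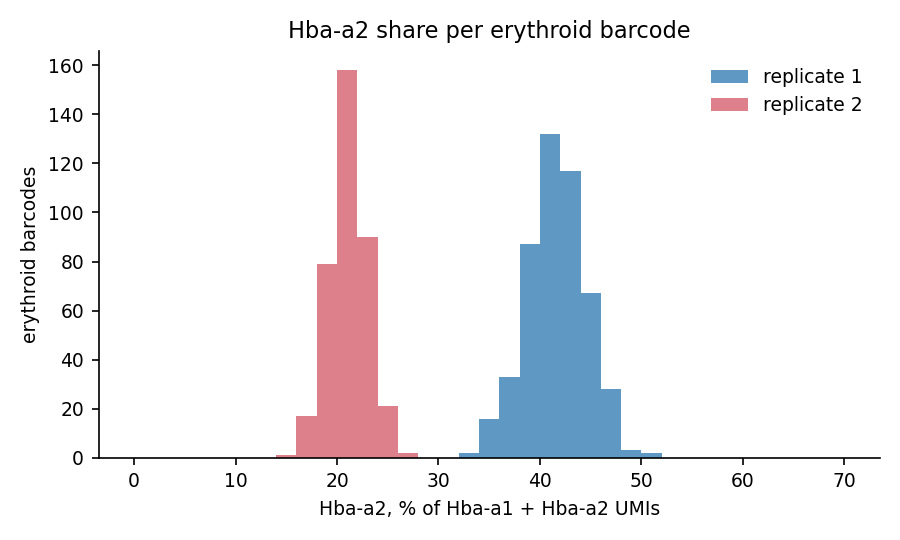
Number of erythroid barcodes (vertical axis) by the share of Hba-a2 among Hba-a1 and Hba-a2 UMIs (horizontal axis, bins of 2 percentage points), by library. The distributions do not overlap, with the lowest barcode of replicate 1 at 32.3% and the highest of replicate 2 at 26.5%.

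The summed adult alpha level moved far less between libraries than either gene. Hba-a1 and Hba-a2 stood at 155195 and 111184 CPM in the erythroid barcodes of replicate 1 and at 195701 and 52522.6 CPM in those of replicate 2. Hba-a1 was thus higher in replicate 2 than in replicate 1 and Hba-a2 lower, while the alpha share of all globin UMIs was 32.0% and 31.3%. The source of this difference between libraries was not tested.

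Hbb-bt, the minor adult beta chain, differed among erythroid barcodes of the same library. Of Hbb-bt and Hbb-bs UMIs together, Hbb-bt made up 17.4% and 13.3% over all erythroid barcodes (15.3% ± 2.8, SD, n = 2). Per barcode the share ran from 0.109% to 54.2% with a median of 13.8% in replicate 1, and from 0.117% to 25.4% with a median of 10.6% in replicate 2. The barcode at 54.2% held only 11 Hbb-bs and 13 Hbb-bt UMIs and is the barcode of mostly embryonic globin described below.

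The share of Hbb-bt was ordered by cluster in both libraries. Cluster 27, with Slc4a1 (band 3, the anion exchanger of the red cell membrane) among its leading genes, gave 25.5% in replicate 1 and 19.2% in replicate 2. Cluster 10, with Alas2 among its leading genes, gave 19.6% and 12.8%. Cluster 17 had fewer than 3 of the erythroid markers detected in 10% of its barcodes and stays without a cell type name, although Alas2 is among its leading genes, and it gave 10.3% and 6.85%. Median depths fell in the same order, from 8264 and 7102 UMIs in cluster 27 through 6552 and 4799 in cluster 10 to 3141 and 2743 in cluster 17. The clusters were made without the globins, but from the same barcodes and depths and from counts scaled with the globins included.

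The share was also higher in the deepest barcodes, though it did not rise at every step. Erythroid barcodes of 2000 to under 3000 UMIs gave an Hbb-bt share of 10.3% and 6.77%, and those of 8000 UMIs or more gave 24.8% and 19.6%. In between, barcodes of 3000 to under 4000 UMIs gave 11.3% and 7.44%. Those of 4000 to under 5000 UMIs gave 10.7% and 10.1%. Barcodes below the minimum with at least 20% globin gave 9.46% and 5.65% at 1000 to under 2000 UMIs. Across barcodes, Spearman's rho between the share and the UMIs of a barcode was 0.531 (487 barcodes) and 0.640 (368 barcodes). This is a description, since barcodes of a library share their source and the share and depth are read from the same counts. Within cluster 10 rho was 0.446 and 0.493, within cluster 17 it was 0.149 and 0.237, and within cluster 27 it was 0.104 and 0.385. The Hba-a2 share gave rho of 0.139 and 0.0382 with depth, and the alpha share 0.126 and -0.149.

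**Figure D3:**
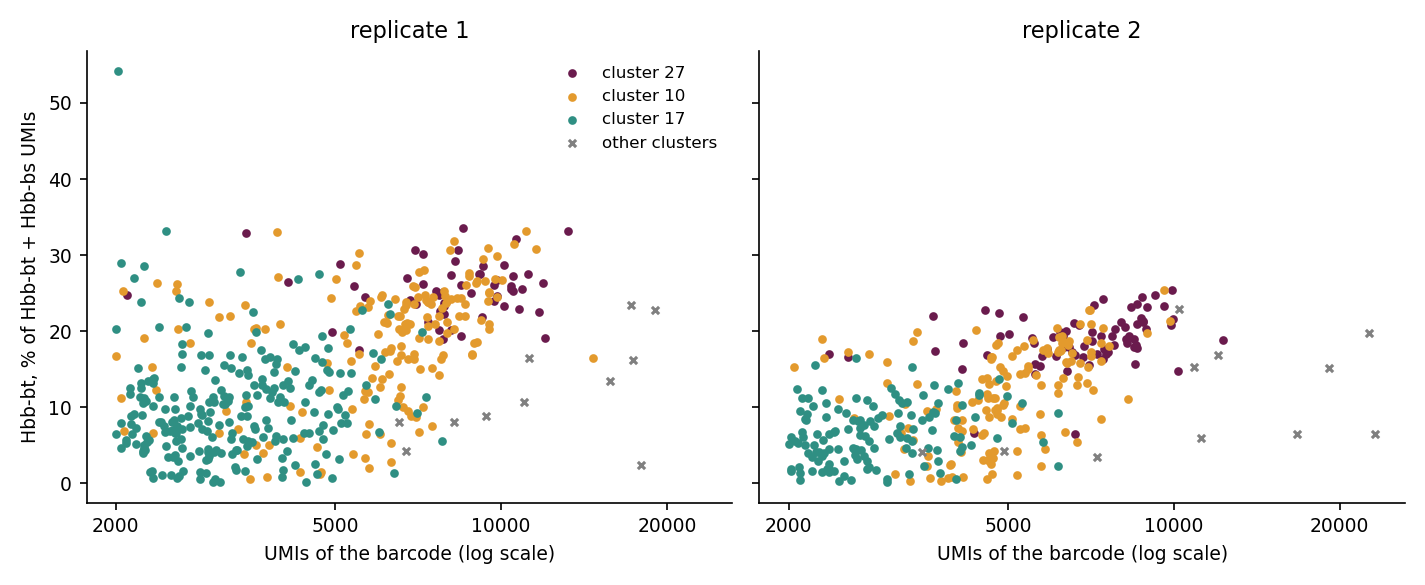
Share of Hbb-bt among Hbb-bt and Hbb-bs UMIs (vertical axis) against all UMIs of the barcode (horizontal axis, log scale), with 1 point per erythroid barcode, coloured by globin-free cluster, and 1 panel per library. Cluster 27 lies highest, with medians of 25.3% and 19.0%, and cluster 17 lowest, with medians below those of clusters 10 and 27 in both libraries.

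Erythroid barcodes were also split by 20 mitotic genes, with the question whether barcodes with signs of division carry other globin levels. Barcodes with no UMI of these genes (197 and 145) were compared with barcodes with UMIs of at least 2 of them (126 and 96). The split rests mostly on Ube2c, a ubiquitin-conjugating enzyme of mitotic exit, which had a UMI in 46.8% and 48.9% of all erythroid barcodes, whereas Mki67, a marker of dividing cells, had one in 8.21% and 7.61%. The barcodes with no mitotic gene were also shallower, with a median of 3246 and 3123 UMIs against 7489 and 6590.

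Hbb-bt stood at 63155 and 49176 CPM in barcodes without a mitotic gene and at 123647 and 93648 CPM in those with 2 or more. The 2 values of the first group lie below both values of the second. The share of all tested genes that separate in this way was not counted. With 2 values against 2, an exact permutation test cannot go below 0.333. Hbb-bs stood at 511130 and 507461 CPM without and at 428196 and 442062 CPM with 2 or more mitotic genes. The Hbb-bt share was 11.0% and 8.83% without, 17.2% and 12.8% with 1, and 22.4% and 17.5% with 2 or more. On the log2 scale the ratio of Hbb-bt to Hbb-bs was lower without mitotic genes by 1.22 and 1.13 in the 2 libraries, a difference of -1.18 ± 0.07 (SD, n = 2). Its direction was the same in all 12 other groupings tried, from -0.616 to -1.63.

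In the fit across all genes, with p-values from the quasi-likelihood test of edgeR adjusted by Benjamini and Hochberg's method, there were 225 calls among 15379 genes between these barcode groups (1.46%), of which 35 were higher (0.228%) and 190 lower (1.24%) without mitotic genes. None of the 4 adult globins was among them in this fit. The fit has 28 columns, with 11 cell classes and the empty barcodes beside the erythroid groups. The errors below therefore include the spread of those other groups between libraries. The log2 difference, without against with 2 or more mitotic genes, was -0.70 ± 0.45 (SE) for Hbb-bt with an adjusted p of 0.786. It was 0.48 ± 0.59 for Hbb-bs (adjusted p = 0.874), 0.34 ± 0.55 for Hba-a1 (adjusted p = 1) and 0.30 ± 0.36 for Hba-a2 (adjusted p = 0.87). For each of the 4 genes the sign changed under at least 1 other setting, so no direction is given for a single adult globin. Every barcode was also thinned to 2000 UMIs, which gave each barcode the same depth. The mitotic genes were counted anew on the thinned UMIs, so the 2 groups did not hold the same barcodes as before. In that setting 157 of 10311 genes were called (1.52%), 141 higher (1.37%) and 16 lower (0.155%) without mitotic genes. The median log2 difference of all genes moved there from -0.001 to 1.951. Hba-a1, Hba-a2 and Hbb-bs passed the test at 1.41, 1.36 and 1.53, all below that median, and Hbb-bt gave 0.46 with an adjusted p of 0.161. With no filter on low counts 363 of 21984 genes were called (1.65%), 88 higher (0.4%) and 275 lower (1.25%), and all 4 adult globins passed, Hbb-bt with -0.69 (adjusted p = 9.16e-21). With a minimum of 5000 UMIs 333 of 15553 genes were called (2.14%), 21 higher (0.135%) and 312 lower (2.01%), and of the 4 only Hbb-bt passed, with -1.42 (adjusted p = 0.0285).

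Hbb-y, the embryonic epsilon-y chain, was the member that passed this test, with a log2 difference of 7.74 ± 0.91 (adjusted p = 7.61e-06). That value came from 1 barcode of replicate 1, which held 805 of the 808 Hbb-y UMIs of its group. Replicate 2 had 1 Hbb-y UMI without and 2 with mitotic genes. With barcodes of over 10% embryonic globin left out, the difference was 0.32 with an adjusted p of 1. With DESeq2 its adjusted p was 0.395. Hba-x gave 3.93 ± 1.13 (adjusted p = 0.102), and Hbb-bh1 had too few UMIs to be tested.

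Genes that work with haemoglobin in the red cell were counted by list, beside 1.24% of all tested genes lower and 0.228% higher. With barcodes thinned to 2000 UMIs and grouped anew by mitotic genes, fewer genes of these lists were called. Then 0 of 9 heme genes, 0 of 15 regulators and 0 of 11 iron and chaperone genes fell. Of the other lists, 3 of 10 membrane genes and 2 of 17 late red cell genes fell. As higher, 1 heme gene and 1 gene of the iron and chaperone list passed. In the thinned fit 0.155% of all genes were lower and 1.37% higher. The thinned medians were -0.008 for the heme list, -1.25 for the membrane list and -0.68 for the late red cell list, all below the thinned median of 1.951 over all genes. Of the enzymes and carriers of heme synthesis, 5 of 12 tested genes fell and 0 rose, with a median log2 difference of -2.01 against -0.001 over all genes. Urod, which decarboxylates uroporphyrinogen, stood at 4.16 and 24.9 CPM without and at 107 and 116 CPM with mitotic genes, a log2 difference of -2.85 ± 0.33 (adjusted p = 1.74e-06). Cpox and Alad, further enzymes of the pathway, fell by 4.05 and 2.21 on the log2 scale. Alad gave 0.11 (adjusted p = 1) without Ube2c in the mitotic list, and 0.49 (adjusted p = 0.791) with thinned barcodes, where it lay below the median of all genes. Alas2 did not pass, at 1315 and 1561 CPM without and 1323 and 1596 CPM with.

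Of the iron and chaperone list, 3 of 12 genes fell and 1 rose. Fth1, the ferritin heavy chain, fell by 1.19 on the log2 scale, whereas Ftl1, the ferritin light chain, rose by 0.44. With thinned barcodes Fth1 gave 0.15 (adjusted p = 0.657), below the median of 1.951 over all genes there. At a minimum of 5000 UMIs Ftl1 gave -0.69 (adjusted p = 0.000326), where the median over all genes was -0.26. Eif2ak1, the heme-regulated kinase that slows globin translation when heme is short, fell by 2.58, and Slc25a37, the mitochondrial iron importer, by 0.85. Without Ube2c in the mitotic list Slc25a37 passed in the opposite direction, with 0.70 (adjusted p = 0.0186), and it gave 0.14 at a globin share of 10%. The median of the list was -0.60. Of 20 tested regulators of globin genes, 1 fell, and this was Lmo2, an adaptor of the erythroid transcription complex, by 2.32. Klf1, which activates the adult beta genes, had 7.23 and 7.52 CPM with and 1.39 and 0 CPM without mitotic genes (adjusted p = 0.405). Bcl11a, a repressor of embryonic and fetal globins, had between 0 and 1.39 CPM in the 4 columns.

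Of the red cell membrane list, 8 of 19 genes fell and 0 rose, with a median of -2.78. Slc4a1 stood at 13.9 and 23.0 CPM without and at 162 and 137 CPM with mitotic genes, a log2 difference of -2.83 ± 0.44 (adjusted p = 0.000335). Rhd, a membrane protein of the Rh family, fell by 2.83. Of the late red cell list, 16 of 19 genes fell and 0 rose, with a median of -1.95. Gpx1, a glutathione peroxidase, stood at 140 and 345 CPM without and at 1867 and 1731 CPM with, a log2 difference of -2.70 ± 0.19 (adjusted p = 4.74e-10). Fbxo30, Fam210b and Xpo7, a nuclear exporter, fell by 3.16, 2.53 and 2.47. Fam210b gave 0.088 (adjusted p = 1) without Ube2c in the mitotic list.

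Over all tested genes of at least 50 CPM, the largest falls were in Ube2c and Nusap1, which are mitotic genes of the rule itself, and then in Ifi27, Gadd45a and Mpp1 (log2 differences of -3.50, -3.48 and -3.39). Mpp1 encodes a membrane protein of red cells. The largest rises were in Wfdc2 (1.82), Lars2 (1.19), Gm42418 (0.94), mt-Nd4l (0.82) and mt-Nd1 (0.79). At a minimum of 5000 UMIs, where the median over all genes was -0.26, the last 4 gave -0.45 for Lars2, -0.64 for Gm42418 (adjusted p = 0.00704), -0.17 for mt-Nd4l and -0.23 for mt-Nd1. Lars2 and Gm42418 lay below that median and both mitochondrial genes above it. Wfdc2 is a gene of epithelial cells, and Gm42418 overlaps ribosomal RNA sequence. Gm42418 held 15.8% and 16.8% of the UMIs of empty barcodes and 2.95% and 4.03% of those of erythroid barcodes. Its part in the rises was not tested.

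These counts also depended on Ube2c. Without it in the mitotic list, the group with 2 or more fell to 58 and 45 barcodes, and 147 of 15398 genes were called (0.955%), 132 higher (0.857%) and 15 lower (0.0974%). Fth1, Slc25a37, Alad and Fam210b then changed sign. A split by the globin-free clusters, 17 against 27, called 445 of 15393 genes (2.89%), 84 higher (0.546%) and 361 lower (2.35%). It lowered 6 of 12 heme genes, 4 of 20 regulators, 3 of 12 iron and chaperone genes, 12 of 19 membrane genes and 18 of 19 late red cell genes, and raised none of them. Those clusters were formed with these genes, so this is a description. Under the cluster split Hbb-bt gave -1.26 ± 0.59 (adjusted p = 0.493) and Hbb-bs 0.32 ± 0.59 (adjusted p = 1). With only the erythroid groups in the fit, the mitotic split called 114 of 1256 genes (9.08%), 37 higher (2.95%) and 77 lower (6.13%). The cluster split then called 456 of 601 genes (75.9%), 207 higher (34.4%) and 249 lower (41.4%). Hba-a1, Hba-a2 and Hbb-bs were among the higher there, which is read against that share and a median of -0.232 over all genes.

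Outside erythroid barcodes globin UMIs were common and few per barcode. At least 1 was found in 94.5% and 84.8% of other kept barcodes, and in 91.1% and 76.3% of empty barcodes. The median was 3 and 2 globin UMIs in an other kept barcode and 3 and 1 in an empty barcode. Median depths were 12417 and 12795 UMIs against 192 and 177. Over quartiles of depth of the other kept barcodes the median was 3, 3, 3 and 5 in replicate 1 and 1, 2, 2 and 3 in replicate 2. The median per barcode thus lay within 2 UMIs of that of empty barcodes in every quartile, and no expression in kidney cells is read from these counts.

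**Figure D4:**
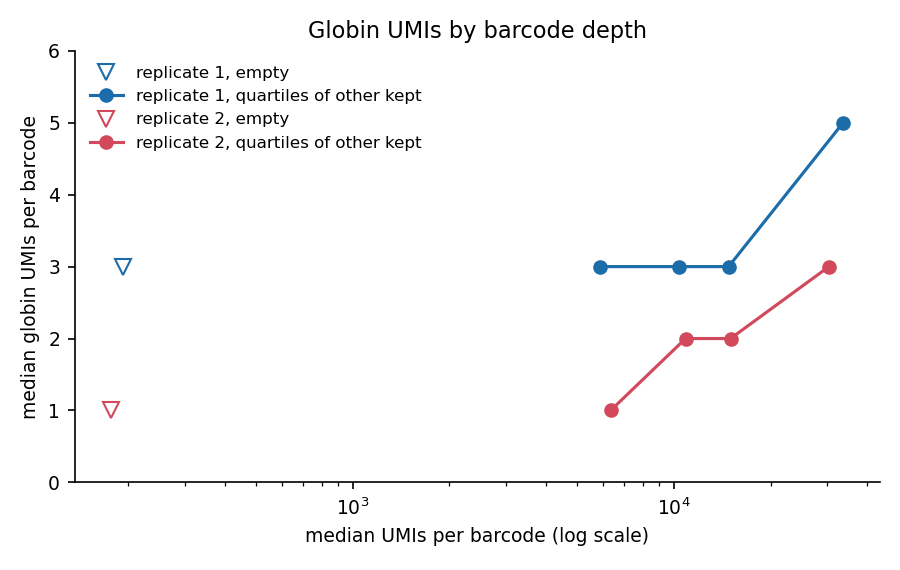
Median globin UMIs per barcode (vertical axis) against median UMIs per barcode (horizontal axis, log scale) for empty barcodes and for quartiles of depth of the other kept barcodes, by library. Medians of empty barcodes are 3 and 1, and those of the quartiles run from 3 to 5 in replicate 1 and from 1 to 3 in replicate 2.

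Relative to all UMIs the globins were lower in other kept than in empty barcodes. They made up 0.0903% and 0.0720% of the UMIs of other kept barcodes, and 1.499% and 0.906% of those of empty barcodes. The fit of these groups called 7338 of 14627 genes (50.2%), 3624 higher (24.8%) and 3714 lower (25.4%) in other kept barcodes, and a call of a member is read against that high share. Hbb-bs stood at 581 and 471 CPM in other kept and 8780 and 5428 CPM in empty barcodes, a log2 difference of -4.01 ± 0.42 (adjusted p = 2.46e-06). The rule limits globin to under 20% in other kept barcodes, so the size of this difference moves with it, to -4.53 at 10% and -3.45 at 50%. With the same limit put on empty barcodes the difference was -4.01 (adjusted p = 2.85e-06). The log2 difference was -4.41 for Hba-a1, -4.43 for Hba-a2 and -4.19 for Hbb-bt. Adjusted p-values were 1.35e-07, 3.06e-08 and 7.45e-08 in edgeR's quasi-likelihood test. The fit has 2 residual degrees of freedom.

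A small number of other kept barcodes held most of their globin. The top 1% of them by globin UMIs carried 77.2% and 85.1%. Barcodes of 1% to 20% globin numbered 62 and 27, with a median of 839 and 1638 globin UMIs, and the 5361 and 4542 barcodes below 1% held 4.64 and 2.58 globin UMIs on average. The highest single other kept barcode had 7104 and 5747 globin UMIs. The alpha to beta ratio was 0.388 and 0.396 in barcodes below 1% globin and 0.378 and 0.342 in those above. Both kinds lay below the 0.473 and 0.478 of the empty barcodes.

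By cell class, named from markers without globins, endothelial-like barcodes had the highest globin level among classes of at least 20 barcodes in both libraries, 2157 and 2279 CPM (2218 ± 86.5, SD, n = 2). Nephron progenitor-like barcodes came second in replicate 1 with 1280 CPM and distal tubule-like ones in replicate 2 with 1456 CPM, so the order below endothelial-like was not the same. Distal tubule-like barcodes gave 355 CPM in replicate 1. In replicate 2, 1 of their 89 barcodes held 95.3% of the globin, and without it the class stood at 69.5 CPM. Of the endothelial-like barcodes, 13 of 742 and 5 of 494 had 1% globin or more and held 78.5% and 86.0% of the class's globin. Without barcodes of 1% globin or more the class stood at 486 and 324 CPM and was no longer first: neutrophil-like barcodes stood at 749.5 CPM in replicate 1 and mural-like ones at 432 CPM in replicate 2. Medians per barcode were from 2.5 to 4 globin UMIs over the classes of replicate 1 and from 1 to 3 in replicate 2.

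Macrophages take up old red cells, so immune-like barcodes (178 and 121) were compared with the other non-erythroid classes. They held 324 and 179 CPM of globin, with 3.08 and 1.85 globin UMIs per barcode, a median of 3 and 1, and 0 barcodes of 1% globin in either library. The fit called 7401 of 15379 genes (48.1%), 3725 higher (24.2%) and 3676 lower (23.9%). Hbb-bs passed edgeR's quasi-likelihood test with a log2 difference of -1.30 ± 0.53 (adjusted p = 0.0471). The call was lost under 9 other settings, and at a globin threshold of 50% the difference was 0.84 with an adjusted p of 0.36. The median over all genes was -0.191. Without barcodes of 1% globin or more, the summed globin level of immune-like barcodes lay above that of 9 of 12 other classes in replicate 1 and 8 of 11 in replicate 2, unnamed barcodes counted as a class. No direction is therefore given for immune-like barcodes. Hba-a1 gave -1.03 ± 0.57 (adjusted p = 0.15), Hba-a2 -0.94 ± 0.65 (adjusted p = 0.255) and Hbb-bt -0.63 ± 0.81 (adjusted p = 0.611).

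The embryonic genes were rare and held by few barcodes. Over all barcodes of at least 20 UMIs the libraries had 3564 and 1677 embryonic UMIs, of which 1502 and 1011 were Hba-x, 2058 and 658 Hbb-y, and 4 and 8 Hbb-bh1. Barcodes with at least 10 embryonic UMIs numbered 30 and 13 and held 93.5% and 93.8% of them. The first barcode alone held 29.7% in replicate 1 and 60.3% in replicate 2. Of the 30 and 13 barcodes, 19 and 8 lay between the empty range and the minimum of 2000 UMIs, 6 and 3 were empty barcodes, 4 and 1 were other kept barcodes and 1 in each library was erythroid.

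In erythroid barcodes embryonic UMIs were near absent. At least 1 was found in 8 of 487 (1.64%) and 4 of 368 (1.09%). Hbb-bh1 had 0 UMIs in both, which allows a share of barcodes with a UMI of up to 0.755% and 0.997% by exact binomial 95% limits. Embryonic genes made up 0.0502% and 0.00145% of globin UMIs. The value of replicate 1 came from 1 barcode of 2019 UMIs, just above the minimum, with 254 Hba-x and 805 Hbb-y UMIs beside 91 Hba-a1, 58 Hba-a2, 11 Hbb-bs and 13 Hbb-bt. Embryonic genes were 86.0% of its globin.

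The first barcode of replicate 2 lay below the minimum, with 1485 UMIs. It held 469 Hba-x, 541 Hbb-y and 2 Hbb-bh1 UMIs, with 73 Hba-a1, 16 Hba-a2, 1 Hbb-bs and 0 Hbb-bt. In both of these barcodes the beta-type UMIs were nearly all Hbb-y, whereas adult alpha UMIs stood beside Hba-x. A further example, an other kept barcode of replicate 1 with 20559 UMIs, held 186 Hba-x and 253 Hbb-y UMIs with 77 adult alpha and 15 adult beta UMIs.

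Barcodes that reached 10 UMIs of both Hba-x and Hbb-y numbered 10 and 3. Together they held 857 and 718 Hba-x and 1914 and 582 Hbb-y UMIs, and adult chains were 4.72% and 0.340% of their beta-type UMIs. Hba-x made up 59.9% and 88.5% of their alpha-type UMIs. A further 19 and 7 barcodes had at least 10 Hba-x but under 10 Hbb-y UMIs. In replicate 1 these 19 held 510 Hba-x, 26 Hbb-y and 37 adult beta UMIs in all. In replicate 2, 1 of the 7 was an erythroid barcode with 6373 globin UMIs, of which 12 were Hba-x and 1 Hbb-y. The remaining 1 and 3 barcodes had Hba-x under 10.

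Between other kept and empty barcodes Hba-x fell by 2.78 on the log2 scale (adjusted p = 2.04e-05) and Hbb-y by 1.47 (adjusted p = 0.0249) in edgeR's quasi-likelihood test. These calls are read against the 25.4% of all genes called lower. Without the library block the adjusted p-values were 0.081 and 0.638, and against empty barcodes of 20 to 100 UMIs Hba-x had 0 UMIs in the empty barcodes of either library, so no fold is read there. With barcodes of 10 or more embryonic UMIs left out, the log2 differences were -5.42 and -5.59. Levels of Hba-x were 3.13 and 0.549 CPM in other kept and 11.5 and 7.18 CPM in empty barcodes, and those of Hbb-y 2.48 and 0.0560 against 4.39 and 1.12 CPM.

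The other haemoglobin genes of the loci were low. Hbb-bh2 had 0 UMIs in all 3 groups of both libraries. Hbq1a and Hbq1b, theta-type genes of the alpha locus, had 50 and 19, and 52 and 54 UMIs in erythroid barcodes, and at most 7 in other kept or empty barcodes. Over the 28 columns of the fit (11 cell classes, 2 erythroid groups and the empty barcodes, per library) and 12951 genes, genes among the 5 most like the summed adult globins were Alas2 (Pearson r = 0.982), Gm42749 (0.935) and Hbq1a (0.917). For the summed embryonic globins the highest values were lower, with Sgca at 0.480, Fech at 0.470, Hbq1a at 0.459, Gm42749 at 0.458 and Adra2b at 0.455. The erythroid columns were chosen by their globin share, and a gene such as Hbq1a reached the minimum of 10 CPM through them, so these values largely restate the rule. The columns also come from only 2 libraries, and the values are descriptions.

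In 5 erythroid barcodes with at least 2 embryonic UMIs against 843 with 0, the 10 genes of the highest CPM ratio ran from Isg20 (2.67, 23 UMIs) and Eif1 (2.60, 48 UMIs) to Prdx2 (1.82, 61 UMIs). With so few barcodes, 1 of which held most of the embryonic UMIs, no test was made.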

How the data were processed

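UMIs of the 7 globins were followed in 2 newborn mouse kidney libraries. The deposited values are raw UMI counts per gene and barcode in unfiltered matrices, made with Cell Ranger 6.0.1 on mm10 per the submitters' processing notes, whereas the file headers name version 4. Barcodes of at least 2000 UMIs were kept after removing those over 10% mitochondrial UMIs (690 and 768) and the highest Scrublet scores at 0.8% per 1000 barcodes (310 and 212), which were mostly not erythroid. Clustering (scanpy 1.11.5, 2000 variable genes, 30 components, 15 neighbours, Leiden resolution 1) left out the globins. Before that step, counts were scaled to all UMIs of a barcode, globins included. Classes were named from marker lists, hence "-like". UMIs were summed per library and group and tested with edgeR 4.0.16 (TMM, filterByExpr, quasi-likelihood, library as a block, adjusted p under 0.05), with DESeq2 1.42.0 as an alternative. The library block is used because all groups of a library share its suspension. CPM are relative to all UMIs of a group, with exact 95% intervals. Coordinates come from RefSeq GRCm38.p6, the same build as mm10.

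On simulated data with 200 changed genes and a dispersion of 0.02, the test of the mitotic split found 27% of genes changed by 1 and 93% of those changed by 2 on the log2 scale, with 3 false calls among 15203 unchanged genes. The test of other kept against empty barcodes found 43% and 97%, with 1 false call among 14397. The fitted common dispersions of the 2 tests were 0.00412 and 0.00102, below that of the simulation. These rates therefore apply to the simulated setting only.

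The members, lists and tests were chosen with earlier results of these data known. Named genes were, per list, the 4 largest changes among calls, and over all genes of at least 50 CPM the 5 largest rises and 5 largest falls, and some of these genes are not reported here. Likeness used genes of at least 10 CPM in any column, and enrichment beside embryonic globin needed 20 UMIs. Alternatives changed the depth minimum, globin share, mitochondrial limit, doublets, empty range, normalization, tool, filter, block, mitotic grouping and replicates. P-values measure the spread between libraries over all groups of a fit, not only the groups compared, and it may be technical.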

Additional observations from a re-analysis of the deposited data

Results flagged for a closer look

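Barcodes of over 250 and under 2000 UMIs were left out of the 3 barcode groups and of the tests of their levels, apart from some alternative settings. They held signal of Hba-x and Hbb-y in both libraries, and of Hbb-bh1 in replicate 2, above the limit that a count of 0 allows (3 counts). In replicate 1 the 21828 such barcodes held 722 Hba-x and 894 Hbb-y UMIs, and in replicate 2 the 15170 such barcodes held 840 and 632. Hbb-bh1 had 1 and 5 UMIs there. These barcodes carried 45.4% and 88.1% of all embryonic UMIs of their libraries, and embryonic genes made up 0.403% and 0.585% of their globin UMIs. The highest single barcodes held 523 and 1012 embryonic UMIs. At least 20% globin was reached by 512 and 358 of them. The 2 controls named by the design are not part of these values. The limit of 3 counts covers counting error only.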

How the results depend on the processing

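Leaving out the library block, the paired design of these groups, called 243 genes for the mitotic split, 4141 for other kept against empty barcodes and 7416 for immune-like barcodes, and the Hbb-bs call of immune-like barcodes was lost (no replicate block: -1.29, adjusted p = 0.0545). Leave-one-out fits hold 1 library and give values with no test, and no count of genes. The mitotic split called 363 genes with no filter on low counts, 147 without Ube2c in the list, 445 split by globin-free cluster, 114 with the erythroid groups alone and 456 with both of the last choices. Other kept against empty barcodes called 2363 genes with DESeq2 and 2071 with empty barcodes of 20 to 100 UMIs. Immune-like barcodes gave 3437 calls with barcodes thinned to 2000 UMIs.

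In the mitotic split (without against with), Hba-a1, Hba-a2 and Hbb-bs gave -0.85, -0.89 and -0.80 at a minimum of 5000 UMIs and -0.22, -0.26 and -0.071 at a globin share of 50%. With 1 or more mitotic genes Hba-a1 and Hba-a2 gave -0.027 and -0.041. All 3 passed the threshold thinned to 2000 UMIs (1.41, 1.36 and 1.53, where the median of all genes was 1.951), with no filter (0.35, 0.31 and 0.49) and with the cluster split and the erythroid groups alone together (0.86, 0.78 and 0.99), and Hba-a2 without Ube2c (1.53). Hbb-bt passed at 5000 UMIs (-1.42) and with no filter (-0.69). It gave 0.33 at a globin share of 10%, 0.060 with 3 or more mitotic genes, 0.46 thinned and 0.91 without Ube2c. Hba-x gave -0.75 with DESeq2, -12.53 at 5000 UMIs and -12.41 without barcodes of over 10% embryonic globin, and Hbb-y gave from -0.35 without replicate 1 to 8.73 without replicate 2. The log2 ratio of Hbb-bt to Hbb-bs kept its sign, at -1.28 and -0.616 for minima of 1000 and 5000 UMIs, -0.947 and -1.25 for 1 and 3 or more mitotic genes, -1.05 thinned, -0.763 without Ube2c and -1.63 by cluster.

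Among named genes, Alad (0.49), Fth1 (0.15) and Slc25a37 (0.51) were above 0 when thinned but below the median of 1.951 over all genes. Signs turned for Alad (0.11), Fth1 (0.52), Slc25a37 (0.70), Fam210b (0.088) and Ube2c (0.12) without Ube2c in the list. Slc25a37 gave 0.14 at a globin share of 10%. Ftl1 gave -0.69 at 5000 UMIs and -0.093 at a globin share of 50%. At 5000 UMIs, with a median of -0.26 over all genes, Lars2, Gm42418, mt-Nd4l and mt-Nd1 gave -0.45, -0.64, -0.17 and -0.23.

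Hba-x gave a fitted 8.94 for other kept against empty barcodes of 20 to 100 UMIs, which hold 0 Hba-x UMIs, so this value is no fold. In immune-like barcodes Hbb-bs gave -1.20 with RLE size factors, -1.22 with DESeq2, -1.26 with globins out of library sizes, -1.17 at 1000 UMIs, -0.97 at a globin share of 10%, -1.11 with no doublets removed, -1.30 with 1 or more mitotic genes, -0.59 thinned and 0.84 at a globin share of 50%. There Hba-a1, Hba-a2 and Hbb-bt gave 1.14, 1.39 and 1.54, and Hba-x gave -3.10 at 5000 UMIs. The globin share of erythroid barcodes was 76.3% and 85.0% at thresholds of 10% and 50%, that of other kept barcodes 0.0566% and 0.122%, and the Hbb-bt share 19.0% at 5000 UMIs. Empty barcodes of 20 to 100 UMIs held 0.413% globin with an alpha to beta ratio of 0.487, and those of 100 to 500 UMIs a ratio of 0.483. The causes were not tested.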

Other observations

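In the 21828 and 15170 barcodes of over 250 and under 2000 UMIs, Hbb-bs had 249744 and 162094 UMIs, Hba-a1 had 71568 and 62151, Hba-a2 had 51238 and 16381, and Hbb-bt had 27071 and 10327. Hbb-bs was first and Hba-a1 second in both libraries, as in erythroid barcodes. Hba-a2 lay above Hbb-bt in both, whereas in the erythroid barcodes of replicate 2 Hbb-bt lay above Hba-a2. Hbb-bt made up 9.78% and 5.99% of Hbb-bt and Hbb-bs UMIs, below the 17.4% and 13.3% of erythroid barcodes.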
